A study of Mus musculus with 6 samples.

Results

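Ionotropic neurotransmitter receptors are ion channels that open when a transmitter binds to them, and their subunits were read here across rhombomere 1 of control embryos and of embryos with a conditional Gata2 mutation. Members were all probes whose symbol in the platform annotation named a GABA-A, glycine, AMPA, kainate, NMDA, delta glutamate, nicotinic, 5-HT3 or P2X subunit. This gave 125 of 45276 probes, named for 59 of 19054 genes. Other subunit genes were not analysed here.

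AMPA, kainate and NMDA receptors are tetramers gated by glutamate that let cations in and excite the neuron. GABA-A, glycine, nicotinic and 5-HT3 receptors are pentamers of one gene superfamily. The first pair pass chloride, which often depolarises young neurons, and the other pair pass cations. P2X receptors are trimeric cation channels gated by ATP. In the embryonic brain some of these subunits are expressed in young neurons before most synapses have formed.

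The tissue was rhombomere 1, the most anterior hindbrain segment, dissected at E12.5 from embryos of the ICR (CD-1) strain and hybridised to Illumina Mouse WG-6 arrays. The 3 control pools, labelled wildtype, came from embryos that carry En1-cre and 1 floxed Gata2 allele beside a normal one, and the 3 mutant pools, labelled gata2cko, from embryos with En1-cre and both Gata2 alleles floxed. All embryos therefore carried the En1-cre allele, which drives the recombinase in the midbrain and rhombomere 1, and each pool joined 6 dissected pieces, so a value is a mean over embryos and cell types. The design text calls the pools biological replicates.

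The probe for the targeted gene was read first. Gata2, a zinc finger transcription factor of neuronal precursors, measured 10.71, 10.41 and 10.48 (normalized log2 intensity) in the control pools and 10.79, 10.79 and 11.09 in the mutant pools. The mutant values lay above the control values, with a difference of 0.36 ± 0.12 (SE, limma adjusted p = 0.390). No source used here places the probe inside or outside the sequence that Cre removes, so it does not check the labels. Of 6 rhombomere 1 markers 4 were above background in at least 3 arrays, among them En1 with means of 11.59 in controls and 11.34 in mutants, while Pax2 and Pax5 did not pass. Otx2, a forebrain and midbrain marker, was also present, with values of 7.82 to 8.59 in controls and 8.11 to 8.74 in mutants. The posterior hindbrain marker Hoxa2 was dim, at 4.85, 5.50 and 4.84 in controls and 4.56, 5.70 and 5.95 in mutants. Hoxb2, of the same list, ran from 5.06 to 5.14 in controls and from 4.78 to 5.06 in mutants. Whether the pools differed in the tissue dissected was not tested. Tph2, which makes serotonin, differed by -4.86 between the same pools, from 10.25 to 5.39. Between 42.8% and 45.1% of all probes were above background on an array, and mutant array 1R stood out in that the count of changed genes over the whole array went from 18 to 58 without it.

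No ionotropic receptor gene passed the test between mutant and control pools. Of the 26 genes that could be tested 0 passed an adjusted p of 0.05 (limma, Benjamini-Hochberg over 10524 genes), where 0.171% of all tested genes passed. At an unadjusted p under 0.05 there were 5 members, 19.2% of those tested, against 9.03% of all tested genes. In 4 of these the mutant mean was the lower one (15.4%, against 4.58% of all genes), namely the kainate subunit Grik2, the AMPA subunit Gria3 and the GABA-A subunits Gabra3 and Gabrb1. In 1 it was the higher one (3.85%, against 4.45% of all genes), the P2X subunit P2rx4. Leaving out control array 5R brought the count of 5 to 2, and leaving out 1R or 2R of the mutants brought it to 3. The share of all genes in these smaller fits is not given here. Groups did not overlap in 5 of 26 members, 19.2%, beside 14.1% of all genes. These shares are descriptions, since the members that reached the fit depend on the detection threshold.

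Most of the family was not above background in this tissue at this age. A probe counts as above background where its detection p-value, a comparison with the array's own control beads, is under 0.05, and a gene was tested where a probe met this on at least 3 of 6 arrays. This held for 39 of 125 member probes, 31.2%, beside 48.1% of all named probes, and for 26 of 59 member genes, 44.1%, beside 55.2% of all named genes. Of the member probes 79 were above background on 0 of 6 arrays and 31 on all 6. AMPA receptors were the class in which every named gene was tested, 4 of 4, followed by kainate subunits with 4 of 5, P2X subunits with 4 of 7 and NMDA subunits with 3 of 6. GABA-A subunits were tested for 5 of 14 genes, nicotinic subunits for 5 of 16 and glycine subunits for 1 of 5. Both 5-HT3 genes, Htr3a and Htr3b, had 4 probes between them, all above background on 0 arrays. A probe that is not above background has only a bound and does not show that its gene is off.

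**Figure D1:**
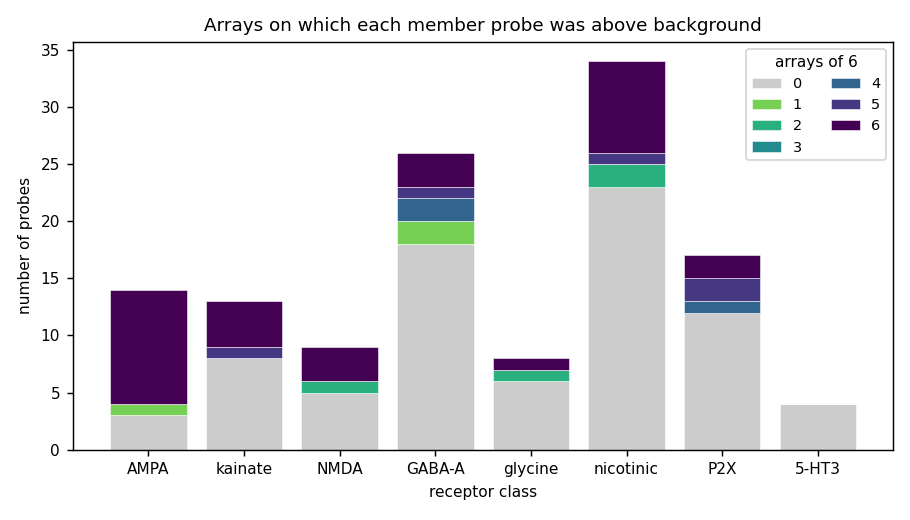
Number of probes of each receptor class (vertical axis) split by the number of arrays, of 6, on which the probe was above background. The grey part, 0 arrays, makes up most of the bar in every plotted class except AMPA, where the darkest part, all 6 arrays, makes up most of it.

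The number of member probes above background was 39, 35 and 37 in the control pools and 40, 39 and 44 in the mutant pools. The means were 37 ± 2 and 41 ± 2.6 (SD, n = 3), with an exact two-sided permutation p of 0.2. The smallest p that 3 pools against 3 allow is 0.1, so this test could not pass 0.05 whatever the values. The control values reach into the lower end of the mutant values. Mutant array 3R, with the highest member count, also had the highest share of all probes above background. With a detection p-value under 0.01 the means were 32.3 in controls and 31.7 in mutants.

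The start regions of the genes are shown for the members whose unadjusted p was under 0.05, as far as the RefSeq promoter table (GRCm38.p6) holds them. It holds 43 of the 59 member genes, 20 of them tested. Each window runs from 250 bases before the annotated start to 50 bases after it, and capitals mark CG dinucleotides.
Grik2 (GRCm38.p6, chr10:49788705-49789004, - strand): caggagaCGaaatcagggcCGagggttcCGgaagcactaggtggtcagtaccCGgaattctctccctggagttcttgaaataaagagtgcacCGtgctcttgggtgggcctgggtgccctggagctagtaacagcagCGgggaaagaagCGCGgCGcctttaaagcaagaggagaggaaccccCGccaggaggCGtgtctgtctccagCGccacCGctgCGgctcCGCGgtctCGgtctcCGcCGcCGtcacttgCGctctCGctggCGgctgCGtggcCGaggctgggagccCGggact
Gabrb1 (GRCm38.p6, chr5:71657671-71657970, + strand): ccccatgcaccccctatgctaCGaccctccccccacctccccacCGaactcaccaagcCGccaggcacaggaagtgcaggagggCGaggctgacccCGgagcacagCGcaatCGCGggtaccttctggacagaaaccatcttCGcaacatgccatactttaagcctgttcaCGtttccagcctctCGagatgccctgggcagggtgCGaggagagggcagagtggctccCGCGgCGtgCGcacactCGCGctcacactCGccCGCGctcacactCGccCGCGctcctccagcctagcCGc
P2rx4 (GRCm38.p6, chr5:122707294-122707593, + strand): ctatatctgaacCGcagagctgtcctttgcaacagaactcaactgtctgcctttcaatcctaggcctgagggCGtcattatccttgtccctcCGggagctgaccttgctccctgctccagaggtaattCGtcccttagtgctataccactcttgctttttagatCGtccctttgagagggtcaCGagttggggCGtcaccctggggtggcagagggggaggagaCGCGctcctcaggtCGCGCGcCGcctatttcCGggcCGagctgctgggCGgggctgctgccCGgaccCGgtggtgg
Gabra3 (GRCm38.p6, chrX:72656870-72657169, - strand): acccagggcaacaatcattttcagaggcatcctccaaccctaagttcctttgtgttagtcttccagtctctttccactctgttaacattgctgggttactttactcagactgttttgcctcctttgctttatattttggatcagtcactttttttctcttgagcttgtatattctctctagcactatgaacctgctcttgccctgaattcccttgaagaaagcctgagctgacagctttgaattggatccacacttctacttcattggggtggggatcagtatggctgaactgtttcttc
The Grik2 window holds 26 CG dinucleotides, that of Gabrb1 25 and that of P2rx4 18, while the Gabra3 window holds 0. Gabra3 and Gabrb1 each have a further annotated start, whose windows hold 0 and 9. The 26 windows of tested members held 0 to 42 CG dinucleotides and had a median G and C content of 59.8%. The 23 windows of members below the detection threshold held 1 to 50 and had a median of 54.7%, and over all 32851 windows of the table the median was 52.7%. The ranges overlap, and the medians are given as a description with no test.

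Because the mutated gene encodes a GATA factor, the same windows were searched on both strands for the GATA letters AGATAA or AGATAG and for TGATAA or TGATAG. A match was present in 4 of 26 windows of tested members (15.4%), in 6 of 23 windows of the members below the threshold (26.1%) and in 29.8% of all windows. The matches in tested members lie in windows of Chrna3, Chrna5, Chrnb1 and P2rx7, at positions -244, -133, -127 and -58 from the start, and are shown in capitals within 30 bases of the gene's strand.
Chrna3 (GRCm38.p6, chr9:55026783-55026812, - strand): cacatgTGATAGgcccccagccctcctcag
Chrna5 (GRCm38.p6, chr9:54980735-54980764, + strand): actgaagtttaaAGATAAtttgcctgaatc
Chrnb1 (GRCm38.p6, chr11:69796047-69796076, - strand): acaaccggagtgTTATCTgacatttgtgag
P2rx7 (GRCm38.p6, chr5:122650313-122650342, + strand): tttgctttagagTTATCTttgctcagaact
In Chrnb1 and P2rx7 the motif reads on the opposite strand. A match is only a run of letters, and windows without one say nothing about binding elsewhere. The windows of Grik2, Gabrb1, P2rx4 and Gabra3 printed above hold no match.

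AMPA receptors carry most fast excitatory transmission. Gria1 to Gria4 encode their subunits, and Gria2 is the one whose edited form keeps calcium out. Gria3 had the largest difference of all 26 tested members. It measured 7.10, 7.22 and 6.98 (normalized log2 intensity) in the control pools and 6.25, 6.81 and 6.90 in the mutant pools. Every mutant pool was below every control pool, and mutant array 1R was the lowest by far. The difference was -0.45 ± 0.17 (SE), a control level 1.37 times the mutant level, with a 95% interval from -0.81 to -0.09, and it did not pass (limma adjusted p = 0.449, unadjusted p = 0.0179). Without mutant array 1R it was -0.25. The second detected probe of Gria3 measured 5.79, 5.83 and 5.53 in controls and 5.05, 5.53 and 5.53 in mutants, a difference of -0.35, so both probes pointed the same way.

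Gria2 was well above background, at 10.71, 10.83 and 10.62 in controls and 10.52, 10.74 and 10.52 in mutants. The groups overlapped, and the difference of -0.13 ± 0.10 did not pass (adjusted p = 0.764). Its 3 detected probes gave -0.13, -0.18 and -0.53. The last of these was even across the controls (8.49, 8.37 and 8.49) and spread out in the mutants (8.40, 7.95 and 7.40, unadjusted p = 0.0165), so the probes of this gene differ in size but not in sign. Gria1 measured 8.60, 8.75 and 8.39 in controls and 8.64, 8.10 and 8.21 in mutants, where pool 1R lay within the controls and the others below them. Its difference was -0.26 ± 0.15 (adjusted p = 0.636), and without array 1R it was -0.43 (adjusted p = 0.202), the smallest adjusted p of any member under any setting tried. Gria4 was near background and even, with means of 5.50 ± 0.01 in controls and 5.53 ± 0.06 in mutants (SD, n = 3).

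**Figure D2:**
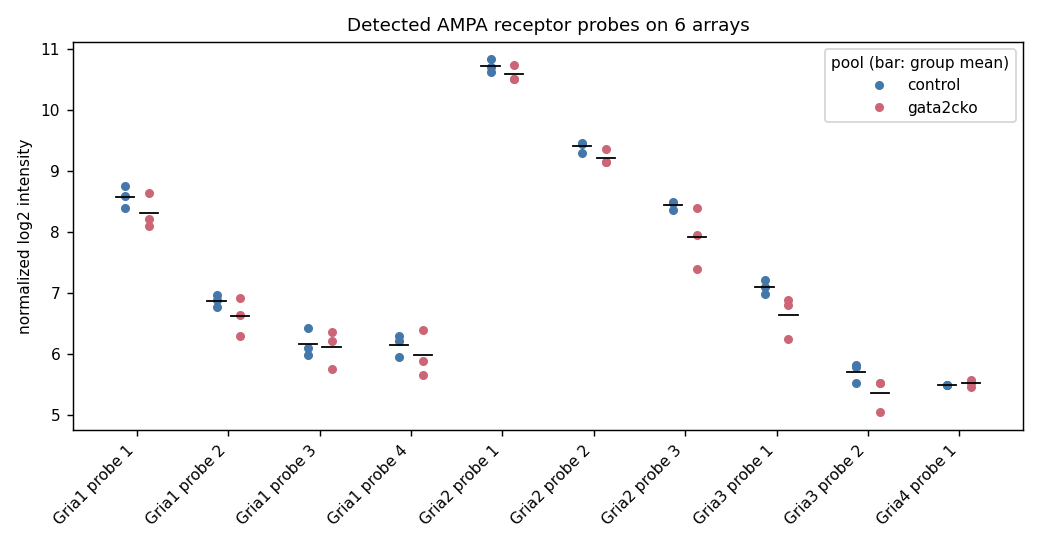
Normalized log2 intensity (vertical axis) of the 10 detected AMPA receptor probes, with the 3 control pools and 3 mutant pools as points and group means as bars. The mutant mean is the lower one for 9 of 10 probes, and the points overlap for all genes but Gria3.

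Across the class 9 of 10 detected AMPA probes had a lower mutant mean, where 47.9% of all detected probes did. Probes of a gene are not independent, and 3 of 4 genes were lower. The class median was -0.20, beside 0.01 over all tested genes, and the class median varied between replicate pools with an SD of 0.09. Of 10 measured neuron markers, 8 had a lower mutant mean, beside 46.7% of all tested genes, with a median of -0.08. Their mean level was 10.49 to 10.63 in control pools and 10.41 to 10.51 in mutant pools. Among them the synaptic vesicle protein Syt1 differed by -0.62 (limma adjusted p = 0.0543). It was the 1 marker with an unadjusted p under 0.05, 10% of the 10, beside 9.03% of all tested genes. Elavl4 differed by -0.0015, and Elavl3 (0.16) and Ina (0.01) were higher in the mutants. Neural progenitor markers had a median of 0.12, with 4 of 7 higher, beside 53.3% of all tested genes. The part of these markers in the AMPA values was not tested, and in pooled tissue fewer cells of a type cannot be told apart from less RNA per cell.

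Kainate receptors modulate transmission and excitability. Grik1 to Grik3 encode subunits that form channels by themselves, and Grik4 and Grik5 encode high-affinity partners. Grik2 had the smallest p of all members. It measured 7.46, 7.64 and 7.67 in the control pools and 7.14, 7.28 and 7.15 in the mutant pools. These values come from the 1 detected probe of Grik2, as its other probe was above background on 0 of 6 arrays. The groups were apart and each was tight. The difference was -0.40 ± 0.12, a control level 1.32 times the mutant level, with a 95% interval from -0.66 to -0.14 (limma adjusted p = 0.352, unadjusted p = 0.00569). This p ranked at place 170 among the 10524 tested genes. Under the 17 other settings it lay between -0.46 and -0.31 and its unadjusted p was under 0.05 in all 17, with adjusted p-values from 0.254 to 0.714.

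The partner subunits lay on the other side of 0. Grik4, dim in both groups, measured 5.23, 5.17 and 4.94 in controls and 5.58, 5.39 and 5.27 in mutants. Its groups did not overlap, and the difference was 0.30 ± 0.15 (adjusted p = 0.594). It was above background on 2 of 3 control arrays and 3 of 3 mutant arrays. Grik5 measured 6.98, 7.12 and 6.86 in controls and 7.02, 6.96 and 7.30 in mutants, a difference of 0.11 ± 0.14 (adjusted p = 0.854), and its second probe gave 0.19. Grik1 had the smallest difference of all members, with means of 6.93 ± 0.11 and 6.94 ± 0.03 (SD, n = 3) and a 95% interval of the difference from -0.25 to 0.28. Grik3 was below the detection threshold. A difference between the responses of Grik2 and of its partners was not tested.

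NMDA receptors need both glutamate and a co-agonist, and their subunits set calcium entry. Grin2b, the main partner subunit of the embryonic brain, measured 6.86, 7.03 and 6.18 in controls and 6.24, 7.23 and 6.75 in mutants. The pools of both groups spread over the same range, and the difference of 0.05 ± 0.24 had the widest interval of all members, -0.47 to 0.58. Grin3a, a subunit that lowers calcium permeability and is high in early development, measured 9.36, 9.63 and 9.18 in controls and 9.13, 9.15 and 9.40 in mutants, which overlap (difference -0.16 ± 0.13, adjusted p = 0.758). Grin2c was close to background, with means of 5.10 and 5.12. Grin2a was above background on 2 of 6 arrays, and Grin2d and Grin3b on 0.

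GABA-A receptors are built from alpha, beta and gamma or other subunits, and alpha3 is an alpha subunit of immature and of monoaminergic neurons. Gabra3, on the X chromosome, measured 5.75, 5.42 and 5.56 in the control pools and 4.91, 4.95 and 5.53 in the mutant pools. Mutant array 3R lay within the controls and the other mutant arrays below them. Its probe was above background on 3 of 3 control arrays and 1 of 3 mutant arrays, so it passed detection through the brighter group. The difference was -0.45 ± 0.18 with a 95% interval from -0.84 to -0.06 (limma adjusted p = 0.501, unadjusted p = 0.0285). Without background correction and on the authors' normalized values the same gene kept its sign, and over all settings it lay between -0.65 and -0.19.

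Gabrb1, a beta subunit, measured 5.67, 5.47 and 5.78 in controls and 5.40, 5.20 and 5.25 in mutants. The groups did not overlap, by a small margin. The difference was -0.36 ± 0.15 (adjusted p = 0.505, unadjusted p = 0.0302), and its second probe gave -0.31. The beta subunit Gabrb2 measured 6.08, 5.42 and 5.78 in controls and 5.23, 5.98 and 5.82 in mutants, overlapping fully (difference -0.09 ± 0.21, adjusted p = 0.934). Gabrg3, a gamma subunit, had means of 5.20 and 5.29, with 2 of 3 control arrays above background. Gabrq, the theta subunit known from monoaminergic neurons, had means of 5.03 and 5.23, with 1 of 3 control arrays and 3 of 3 mutant arrays above background. All 5 tested GABA-A subunits were therefore near background in both groups. Each of the 2 probes of Gabrp was above background on 1 mutant array. Gabra4, Gabra5, Gabra6, Gabrd, Gabrg1, Gabrr1, Gabrr2 and Gabrr3 were above background on 0 arrays.

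Glra2, the alpha subunit of fetal glycine receptors, was the glycine receptor gene that could be tested. It measured 8.74, 9.14 and 8.91 in control pools and 8.63, 8.79 and 9.0 in mutant pools. The groups overlapped, and the difference was -0.12 ± 0.13 with a 95% interval from -0.41 to 0.16 (adjusted p = 0.829). Glrb, the beta subunit that binds the scaffold gephyrin, was above background on 0 of 3 control arrays and 2 of 3 mutant arrays and was not tested. Glra1, Glra3 and Glra4 were above background on 0 arrays.

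Nicotinic receptors are gated by acetylcholine. The subunits alpha4 and beta2 form the common high-affinity brain receptor, alpha3 and alpha5 are found in autonomic and hindbrain neurons, and beta1 belongs to the muscle receptor. Chrna4 measured 9.95, 9.78 and 9.47 in controls and 9.16, 9.31 and 9.79 in mutants, with mutant array 3R among the controls. The difference was -0.31 ± 0.16 (adjusted p = 0.594). Its second detected probe had the opposite sign, with means of 9.48 and 9.55 and a difference of 0.07, so the probes of Chrna4 disagree. Chrnb2 measured 8.36, 8.59 and 8.27 in controls and 7.83, 8.35 and 8.61 in mutants, a spread that covers the controls (difference -0.14 ± 0.17, adjusted p = 0.847), and its 4 probes gave -0.14 to -0.03.

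Chrna3 measured 7.32, 7.58 and 7.92 in controls and 7.53, 7.43 and 7.66 in mutants, a difference of -0.07 ± 0.15 (adjusted p = 0.929). Chrna5 measured 6.44, 6.94 and 7.33 in controls and 6.99, 6.90 and 6.96 in mutants, a difference of 0.05 ± 0.19 (adjusted p = 0.963). In both genes the control pools spread more widely than the mutant pools. Chrnb1 had means of 5.89 and 5.72 (difference -0.18 ± 0.15, adjusted p = 0.777). The other muscle subunits gave little signal. Chrna1, Chrnd and Chrng were above background on 0 arrays and Chrne on 2, and 3 of 6 skeletal muscle markers with a probe were measured, with mean levels of 5.34 to 5.70 in controls and 5.36 to 5.58 in mutants. Chrna7, which forms receptors by itself, Chrna2, Chrna6, Chrna9, Chrna10, Chrnb3 and Chrnb4 were above background on 0 arrays.

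P2X receptors answer extracellular ATP. P2rx4 is widespread and also found in microglia, P2rx7 is known from immune cells, and P2rx3 from sensory neurons. P2rx4 measured 5.56, 5.58 and 5.60 in the control pools and 6.30, 5.76 and 5.92 in the mutant pools. The controls were almost equal, and all mutant pools lay above them, with array 1R the highest. The difference was 0.41 ± 0.16, a mutant level 1.33 times the control level, with a 95% interval from 0.07 to 0.75 (limma adjusted p = 0.473, unadjusted p = 0.0216). Its second detected probe measured 5.12 in controls and 5.05 in mutants, a difference of -0.07, so the probes disagree in sign. Without array 1R the first probe gave 0.26.

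P2rx3 measured 4.88, 4.80 and 5.20 in controls and 5.43, 5.15 and 5.24 in mutants, with 1 of 3 control arrays and 3 of 3 mutant arrays above background (difference 0.31 ± 0.16, adjusted p = 0.594). P2rx6 differed by 0.09 ± 0.17 and P2rx7 by -0.17 ± 0.16. P2rx1, P2rx2 and P2rx5 were above background on 0 arrays. The class median was 0.20, with 3 of 4 genes higher on their brightest probe, and 0.09 without background correction. P2rx3 passed detection through the brighter group, and P2rx6 was above background on 2 of 3 control arrays and 3 of 3 mutant arrays. The class median therefore depends in part on the detection filter. Of 6 measured microglia and macrophage markers 4 were lower in the mutants, beside 46.7% of all tested genes. Their mean levels were 5.76 to 5.96 in controls and 5.69 to 5.74 in mutants. All 5 measured blood markers were higher, beside 53.3% of all tested genes, with mean levels of 11.95 to 12.03 in controls and 12.07 to 12.36 in mutants. They were uneven, from 0.03 for Hbb-y and 0.08 for Hba-a1 to 0.41 for Hba-x and 0.53 for Hbb-bh1. An unadjusted limma p under 0.05 was reached by 3, 60% of the 5, beside 9.03% of all tested genes, and 0 passed the adjusted threshold. The part of these cells in the P2X values was not tested.

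**Figure D3:**
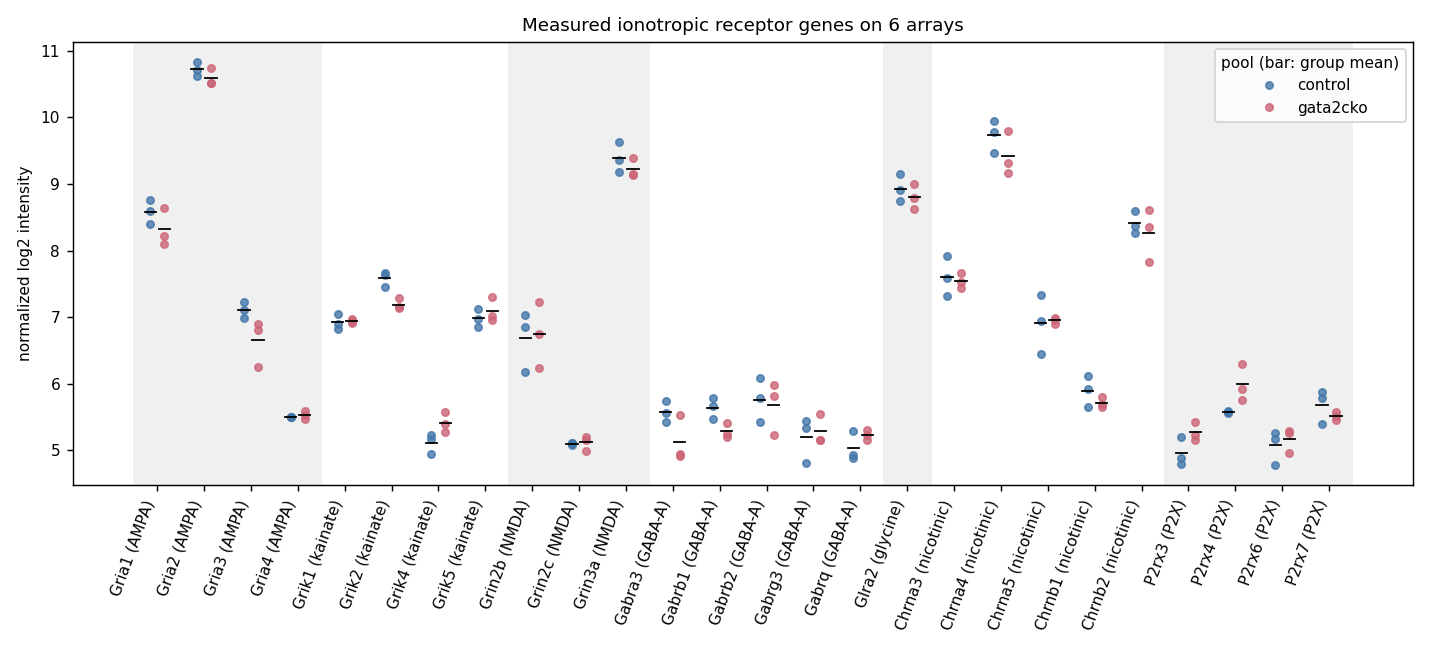
Normalized log2 intensity (vertical axis) of the 26 tested ionotropic receptor genes, grouped by class in alternating shading, with 3 control and 3 mutant pools as points and group means as bars. The control and mutant points lie close together for every gene, and they are apart for Gria3, Grik2, Grik4, Gabrb1 and P2rx4. Levels of different probes cannot be set against each other.

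Set side by side, the class medians of the difference were -0.20 for AMPA, 0.06 for kainate, 0.02 for NMDA, -0.09 for GABA-A, -0.14 for nicotinic and 0.20 for P2X receptors, and -0.12 for Glra2 alone. Over all 26 tested members the median was -0.08, with 14 lower and 12 higher, beside 0.01 over all tested genes, of which 46.7% were lower. Between replicate pools the class medians varied with SDs of 0.07 for kainate, 0.10 for P2X, 0.13 for nicotinic, 0.16 for GABA-A and 0.17 for NMDA receptors. With 1 array left out the GABA-A median ran from -0.26 (without 6R) to 0.14 (without 1R), the NMDA median from -0.20 (without 7R) to 0.046 (without 3R), and the P2X median from 0.0899 (without 6R) to 0.28 (without 7R). The AMPA median ran from -0.27 (without 7R) to -0.13 (without 6R), the kainate median from 0.00999 (without 3R) to 0.13 (without 6R), and the nicotinic median from -0.20 (without 5R) to -0.062 (without 1R). Glra2 ran from -0.22 (without 3R) to -0.018 (without 6R), with -0.033 without 1R, and the median of all members from -0.13 (without 5R) to -0.0024 (without 1R). Every class with more than 1 tested gene had members on both sides of 0. The unadjusted 95% intervals reached from 0.22 on either side of the difference for Gria2 to 0.53 for Grin2b, with a median of 0.34. Passing the adjusted threshold takes a difference larger than that half-width, as Grik2 at -0.40 did not pass, so small changes were not detectable with 3 pools a group.

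**Figure D4:**
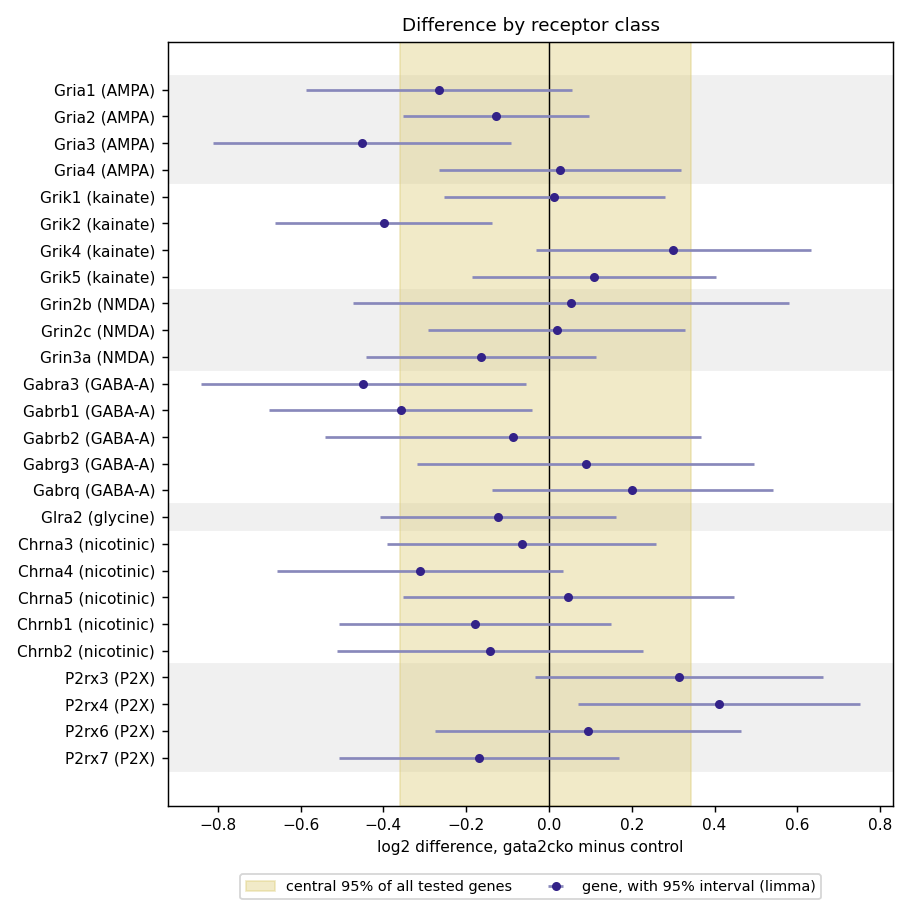
Log2 difference, mutant minus control (horizontal axis), of each tested gene with its 95% interval from limma, and the range that holds the central 95% of all 10524 tested genes as a band from -0.36 to 0.34. Grik2, Gria3, Gabra3 and P2rx4 lie just outside the band, Gabrb1 lies at its lower edge, and no interval lies wholly outside it.

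Proteins that anchor, traffic or accompany these receptors were read from a separate list. Of 49 listed scaffolds, auxiliary subunits and trafficking factors 30 were measured and 0 passed, with 19 lower, 11 higher and a median of -0.04. At an unadjusted p under 0.05 there were 2, both lower, which is 6.67% of the 30 beside 9.03% of all tested genes, so their number does not exceed the background. Pick1, which binds AMPA receptor tails, differed by -0.27 (adjusted p = 0.521), and Cbln2, a secreted synapse organiser that binds delta receptors, by -0.36 (adjusted p = 0.521). Gphn, which encodes gephyrin, differed by 0.06, and Cacng4, an AMPA receptor auxiliary subunit, by 0.26 (adjusted p = 0.573). Metabotropic receptors for the same transmitters had 10 of 34 measured and 0 that passed, with a median of -0.05. At an unadjusted p under 0.05 there was 1 of these, 10% of the 10, which is near the 9.03% of all tested genes. It was Grm5, a glutamate receptor coupled to calcium release, which differed by -0.52, with means of 6.42 and 5.90 (limma adjusted p = 0.302). Of the chloride transporters that set the direction of GABA-A and glycine currents, Slc12a2 differed by 0.09 (adjusted p = 0.837), and Slc12a5 was below the detection threshold.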

How the data were processed

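For 6 arrays the authors deposited linear, non-normalized probe intensity (per the file headers), with a detection p-value beside each value, and a further table of normalized intensity. GenomeStudio 1.0 is named in the submitters' processing notes without a role. Columns of the first table name the genotype and an array (5R to 7R control, 1R to 3R mutant) but no titled sample, so each was a replicate of its group only.

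Values came from neqc in limma 3.58.1 (R 4.3.3), which subtracts background by normexp, adds an offset of 16, applies quantile normalization and takes log2, and which widens the differences of dim probes. A probe was kept where the detection p-value was under 0.05 on 3 or more of the 6 arrays, which held for 19936 of 45276. The brightest probe of each gene entered lmFit and eBayes (intensity trend), with Benjamini-Hochberg adjustment over 10524 genes at 0.05. The fit was tested on simulated data. Symbols came from the platform annotation, and all 59 member symbols were found in the GRCm38.p6 gene table.

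All members are named. Values on every array are given for those with an unadjusted p under 0.05, those with the largest differences in a class and a short set of common subunits. Members and lists were chosen with earlier results of these data known. The number of arrays limits the precision. The settings varied were background, offset (50), scaling, source table, detection filter (absent, or p-value under 0.01 on every array of either group), probe averaging, trend, array weights, each array in turn, a replicate block, the threshold (0.1), probes as units and, added after seeing the data, a fit on every kept probe.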

Additional observations from a re-analysis of the deposited data

How the results depend on the processing

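No ionotropic receptor gene passed the adjusted threshold under any alternative run, with 21 to 59 of the genes tested, and the lowest adjusted p of a member was 0.202 (limma), for Gria1 without mutant array 1R. Over all genes the count of 18 became 41 with array weights, 33 at an adjusted p under 0.1, and 12 (without control array 5R) to 58 (without mutant array 1R) when 1 array was left out. The count of members at an unadjusted p under 0.05 was 5, and became 9 without the detection filter, where 59 were tested. It ran from 2 (without 5R) to 6 (without 7R) with 1 array left out, with 3 without 1R and 3 without 2R. The share of all genes at this threshold is not given for these settings. A shift of the members therefore cannot be told apart from one of the whole array. The median difference of all tested members, -0.08, was -0.016 with median scaling, which moved the median of all genes from 0.01 to 0.08, -0.0044 without the detection filter, -0.13 with the stricter one, -0.020 with array weights, and -0.13 (without 5R) to -0.0024 (without 1R). The GABA-A median was -0.36 with the stricter filter and ran from -0.26 (without 6R) to 0.14 (without 1R). The kainate median was 0.14 with median scaling, and the NMDA median ran from -0.20 (without 7R) to 0.046 (without 3R). The P2X median was 0.0925 without background correction, 0.0883 with the authors' table, with or without the replicate block, 0.0426 without the detection filter, and 0.0899 (without 6R) to 0.28 (without 7R). With detection at p under 0.01 the difference in detected member probes was -0.67. For these values the cause was not tested, beyond the fewer arrays or the other set of genes that the setting itself brings.

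Of the 26 members, 16 kept the sign of their difference under every alternative that tested them, which was 17 alternatives, or 16 for Gabrq and P2rx3, which the stricter filter left out. Chrna3 was 0.0039 with median scaling and -0.21 to 0.0897 with 1 array left out, and Gabrb2 was 0.0059 with array weights and -0.26 to 0.14. With 1 array left out, Grik1 ran from -0.0375 to 0.0745, Gria4 from -0.0029 to 0.0573, Grin2b from -0.20 to 0.31, Gabrg3 from -0.10 to 0.21, P2rx6 from -0.0518 to 0.20, Chrna5 from -0.19 to 0.26, Grin2c from -0.0248 to 0.0829 and Chrnb2 from -0.32 to 0.0725. The cause was not tested.

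Titled pools carry numbers 1 to 3 in both groups, and only the authors' normalized table names them. The deviations of its same-numbered pools had correlations of -0.04, -0.11 and -0.30. With 3 pools a group, such values cannot show whether pools of the same number also shared a batch. With the number as a replicate block 12 genes passed, against 18 without it, and no member passed in either. Few arrays and signal near background limit the dim members.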

Other observations

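Chrna3 and Chrna5, nicotinic subunit genes that lie side by side on chromosome 9 in the GRCm38.p6 gene order, had the same order of control pools. Chrna3 measured 7.32, 7.58 and 7.92 in control arrays 5R, 6R and 7R, and Chrna5 measured 6.44, 6.94 and 7.33 there. In the mutant arrays 1R, 2R and 3R Chrna3 lay between 7.43 and 7.66 and Chrna5 between 6.90 and 6.99. The SD over control pools was 0.30 for Chrna3 and 0.45 for Chrna5, and over mutant pools 0.11 and 0.04. Chrnb4, the next gene of this cluster, was above background on 0 arrays. With 3 pools a group the spread itself was not tested. How common this order of control pools is among all tested genes was not counted, and a link between the neighbours was not tested.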
